A study of Mus musculus with 10 samples.

Results

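Transcripts of 38 genes for lysosomal enzymes and lysosomal membrane proteins were followed across 10 RNA sequencing libraries from 2 mouse tumour lines. The genes were a list of symbols matched by Ensembl identifier to rows of the deposited count table. All 38 were found among its 60676 rows, and all 38 passed the filter on low counts in every comparison. They comprise 7 proteases, 8 enzymes that break down heparan sulphate and other glycosaminoglycans, 6 glycosidases, 7 enzymes and activators of lipid breakdown, 6 membrane proteins, and a group of 4 formed by the transcription factors Tfeb and Tfe3, the autophagy receptor Sqstm1 and progranulin (Grn).

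MC38 is a colon carcinoma line and B16 is a melanoma line. All 10 libraries carried a knockdown of Sdc1, and all of the cells were exposed for 24 h to 10 ng/ml of the cytokine interferon gamma (IFNγ). Sdc1 encodes syndecan-1, a cell surface proteoglycan with heparan sulphate chains. The 3 MC38 groups of 2 libraries were the knockdown with a mutant named c30, the knockdown with a mutant named ect, and the knockdown alone. The 2 B16 groups of 2 libraries were the knockdown with wild-type Sdc1 and the knockdown alone. Beyond the word mutant, the labels give no description of c30 or ect. Cells left unstimulated, cells with intact Sdc1 and vector controls are not analysed here, so that an effect of the added Sdc1 form and an effect of the vector that carried it cannot be told apart. Whether the libraries of a group represent separate cultures is not stated in the labels, so p-values reflect only how far these samples scatter, which could be purely technical variation.

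Lysosomes are acidic organelles in which hydrolases take apart proteins, glycans and lipids that arrive by endocytosis and autophagy. Most of the soluble hydrolases are tagged with mannose 6-phosphate in the Golgi and carried to the lysosome by receptors, while proteins such as LAMP1 and LAMP2 form its limiting membrane. Many genes of the organelle carry E-box elements read by the MiT/TFE transcription factors TFEB, TFE3 and MITF, and the heparan sulphate chains of proteoglycans such as syndecan-1 end in this compartment, where sulphatases, glycosidases and an acetyltransferase degrade them in turn.

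Total counts per library ranged from 11349447 to 15041133, so that 3 counts, taken as the limit that a count of 0 allows, lay between 0.199 and 0.264 CPM, the count scaled to a library of 1000000. This limit covers counting error only. Sdc1 itself had 97.0 and 99.5 CPM in the c30 libraries, 22.4 and 25.2 CPM in the ect libraries, and 24.5 and 29.99 CPM in MC38 knockdown libraries. Its count was thus higher with c30 (log2 fold change 1.86, edgeR adjusted p = 6.18e-31) and overlapped the knockdown with ect (-0.17, adjusted p = 0.325). The counts thus do not show the ect form to be expressed, and "with ect" is used here for what the labels state. In B16 it was 71.1 and 56.9 CPM with wild-type Sdc1 against 40.7 and 43.1 CPM with the knockdown alone (edgeR adjusted p = 0.269). The 2 libraries with wild-type Sdc1 stood further apart than any other pair, with a chi-square per degree of freedom of 20.01 over all genes against 3.79 to 6.27 in the other 4 groups, and replicate 2 of that pair had the highest mitochondrially encoded share, 1.79%. The summed CPM of 8 melanocyte markers was at least 13692 in every B16 library and at most 12.9 in every MC38 library. Markers of simple epithelium were sparse in MC38. They summed to 9.66 to 16.8 CPM over 8 genes, and at most 2 of them, Cdh1 and Krt8, reached 1 CPM. The 10 markers of leukocytes and macrophages, cells rich in lysosomes, summed to 1.60 to 4.87 CPM, and 4 to 6 of them were at 0 in each library.

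Levels can be compared between genes only per length, here as CPM per kilobase of merged exon. On that scale Psap, the precursor of the saposins that present lipids to hydrolases, ranked first of the 38 in all 3 MC38 groups, with 244 ± 8.26 (SD, n = 2) with c30, 241 ± 0.466 with ect and 253 ± 3.94 with the knockdown alone. The cysteine protease Ctsl and the membrane glycoprotein Lamp1 followed it, with 209 ± 3.73 and 195 ± 1.48 CPM per kilobase in MC38 knockdown libraries. In B16 the order was led by Gpnmb, a melanosomal and lysosomal glycoprotein, at 1392 ± 72.2 CPM per kilobase with wild-type Sdc1 and 1385 ± 25.8 with the knockdown alone, and Sqstm1 was second at 341 ± 48.3 and 343 ± 6.49. Tfeb was the lowest of the 38 in every group, at 0.695 to 1.94 CPM per kilobase.

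The E-box letters CACGTG, which read the same on both strands, were sought in RefSeq promoter windows (build GRCm38.p6, 250 bases before to 50 bases after the gene start). Windows were present for 33 of the 38 genes, some with several starts. The letters occurred in 11 of the 38 windows of these genes (28.95%), against 7.15% of 32851 windows of all genes. The longer form TCACGTG, on either strand and containing the first motif, occurred in 10 windows (26.32%) against 3.765%, and the related form TCATGTG in 6 (15.79%) against 3.772%. A match describes these letters and is not a measured binding site. Genes with CACGTG were Arsa, Ctsa, Ctsd, Ctsl, Gaa, Gla, Glb1, Lamp1, Mcoln1, Naglu and Sgsh. Stretches around the match, all before the start, are shown for 5 genes whose transcripts were lower with ect and, as Naglu and Sgsh, for enzymes of heparan sulphate breakdown that did not pass the test there. Ctsd, also lower with ect, held matches and is not shown. The windows of Gpnmb, Grn, Tpp1, Sqstm1, Lamp2, Hexa and Arsb, which were lower with ect as well, held no CACGTG. Asah1 and Ctsb, also lower with ect, had no window. Ctsl, Gaa and Gla held matches, did not pass with ect and are not shown. A relation between the letters and the differences was not tested. Capitals mark CACGTG, each stretch is read 5′ to 3′ on the gene's strand, and the authors' build (GRCm39) differs from this one.
Lamp1, chr8:13159073-13159160, plus strand: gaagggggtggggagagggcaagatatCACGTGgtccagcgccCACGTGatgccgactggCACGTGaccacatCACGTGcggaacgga
Mcoln1, chr8:3500421-3500506, plus strand: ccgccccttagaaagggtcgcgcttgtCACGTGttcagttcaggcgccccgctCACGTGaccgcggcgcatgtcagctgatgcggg
Glb1, chr9:114401003-114401062, plus strand: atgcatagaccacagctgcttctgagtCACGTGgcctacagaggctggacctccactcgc
Arsa, chr15:89477425-89477467, minus strand: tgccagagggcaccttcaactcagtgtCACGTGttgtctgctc
Ctsa, chr2:164833734-164833772, plus strand: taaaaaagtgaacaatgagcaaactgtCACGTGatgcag
Naglu, chr11:101069994-101070053, plus strand: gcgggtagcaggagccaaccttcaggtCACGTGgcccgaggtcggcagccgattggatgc
Sgsh, chr11:119355511-119355566, minus strand: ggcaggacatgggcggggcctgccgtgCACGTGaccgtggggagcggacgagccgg
The Lamp1 stretch held 4 matches between 61 and 15 bases before the start, that of Mcoln1 held 2, and each of the other 5 stretches held 1. The Ctsa window held a further match after the start.

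In MC38, several genes of the list were slightly lower in the libraries labelled with either mutant, and none was called higher. With c30, 6 of the 38 were lower and 0 were higher than in the knockdown alone by edgeR's quasi-likelihood test at an adjusted p under 0.05. They were Gpnmb, Asah1, Lamp2, Ctsd, Arsa and Tpp1. With ect, 15 were lower and 0 were higher, namely Gpnmb, Arsa, Grn, Ctsa, Asah1, Tpp1, Sqstm1, Lamp1, Lamp2, Ctsb, Glb1, Hexa, Ctsd, Mcoln1 and Arsb. Over all 15031 genes tested, 4.45% were lower and 3.3% higher with c30, and 4.61% were lower and 3.55% higher with ect. The median log2 fold change of the 38 genes was -0.11 with c30 and -0.17 with ect, against 0.00 over all genes in both comparisons. Both comparisons use the same 2 knockdown libraries, so their results are given side by side and one is not support for the other. The summed CPM of the 38 genes was 7156 and 7091 in c30 libraries, 6867 and 6901 in ect libraries, and 7656 and 7603 in MC38 knockdown libraries. These are bulk libraries, in which fewer cells that use a gene and less of its RNA per cell cannot be told apart.

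**Figure D1:**
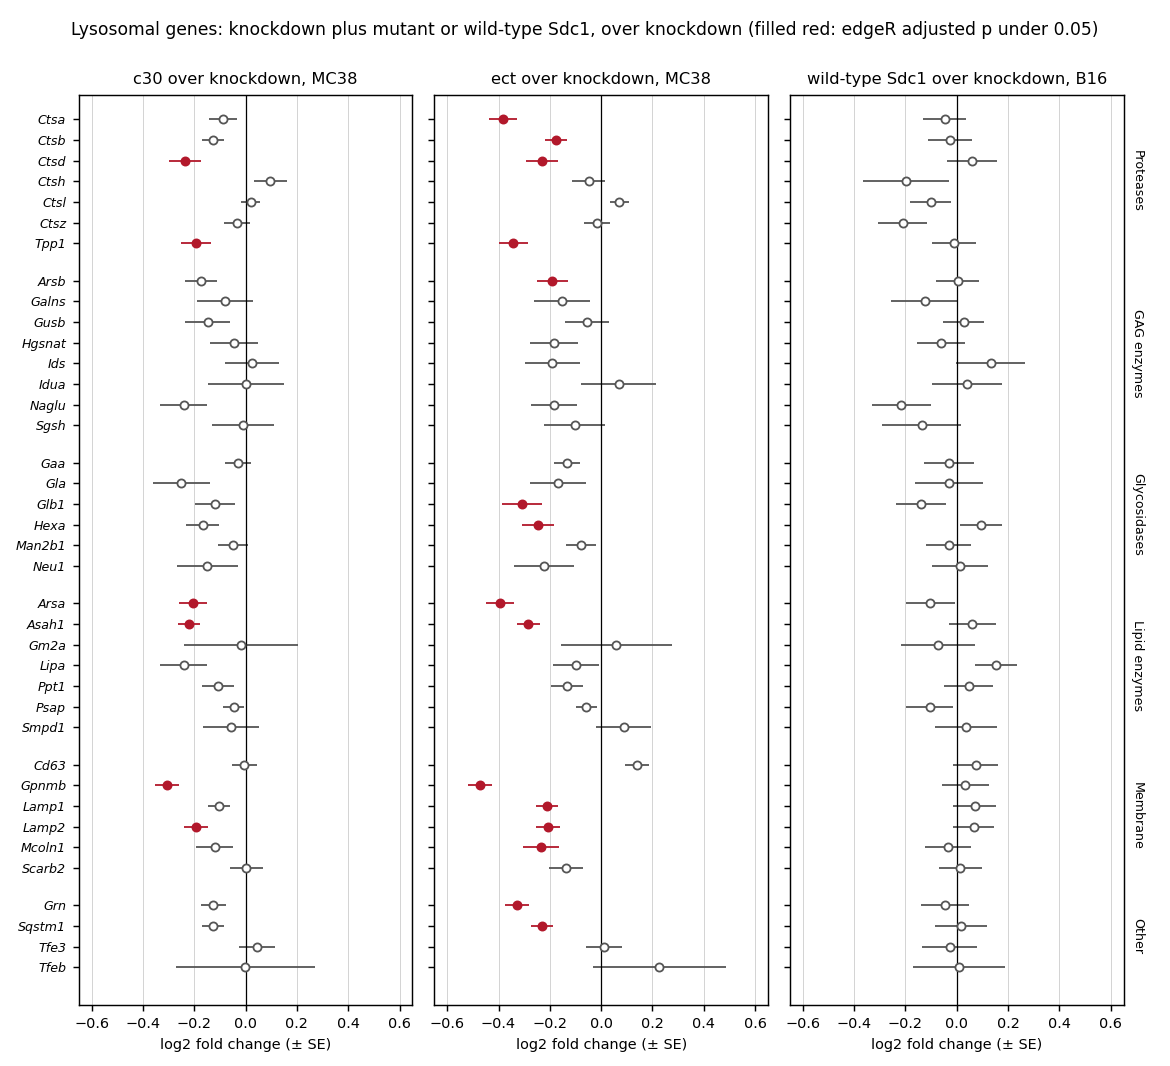
Log2 fold change of each of the 38 genes (points) with its standard error (bars) for c30 over the knockdown and ect over the knockdown in MC38 and for wild-type Sdc1 over the knockdown in B16, grouped by role. Filled red points passed an edgeR adjusted p of 0.05: 6 with c30 and 15 with ect, all left of 0, and 0 in B16.

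Among the membrane proteins the difference was clearest for Gpnmb. It had 328 and 319 CPM in c30 libraries, 286 and 288 CPM in ect libraries, and 389 and 414 CPM in MC38 knockdown libraries. The 3 groups did not overlap, with ect lowest. Gpnmb was 1.24-fold lower with c30 (-0.31 ± 0.05 on the log2 scale, with the standard error; edgeR adjusted p = 4.84e-07) and 1.39-fold lower with ect (-0.47 ± 0.05, adjusted p = 1.97e-13). Lamp2, 1 splice form of which is the receptor of chaperone-mediated autophagy, was also lower with both mutants. Lamp2 had 367 and 325 CPM with c30, 333 and 350 CPM with ect, and 409 and 385 CPM with the knockdown alone, and neither mutant group overlapped the knockdown. Its log2 fold change was -0.19 ± 0.05 with c30 (edgeR adjusted p = 0.00306) and -0.21 ± 0.05 with ect (0.00137).

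Lamp1, which with Lamp2 lines the inner face of the lysosomal membrane with glycans, had 489 and 480 CPM with c30, 430 and 466 CPM with ect, and 525 and 519 CPM with the knockdown alone. All 4 mutant libraries lay under both knockdown libraries, and Lamp1 passed the test with ect (log2 fold change -0.21 ± 0.04, edgeR adjusted p = 3.07e-04) but not with c30 (-0.10 ± 0.04, adjusted p = 0.138). Mcoln1, the calcium and iron channel TRPML1, had 65.5 and 65.0 CPM with c30, 62.3 and 58.0 CPM with ect, and 70.9 and 71.4 CPM with the knockdown alone. It passed with ect (-0.23 ± 0.07, edgeR adjusted p = 0.0229) and not with c30 (-0.12 ± 0.07, adjusted p = 0.351). The tetraspanin Cd63 and Scarb2, the receptor that carries glucocerebrosidase to the lysosome, did not pass. Cd63 was the one membrane gene with a positive estimate with ect, at 336 and 337 CPM against 324 and 293 CPM with the knockdown alone (log2 fold change 0.14 ± 0.05, edgeR adjusted p = 0.0516).

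**Figure D2:**
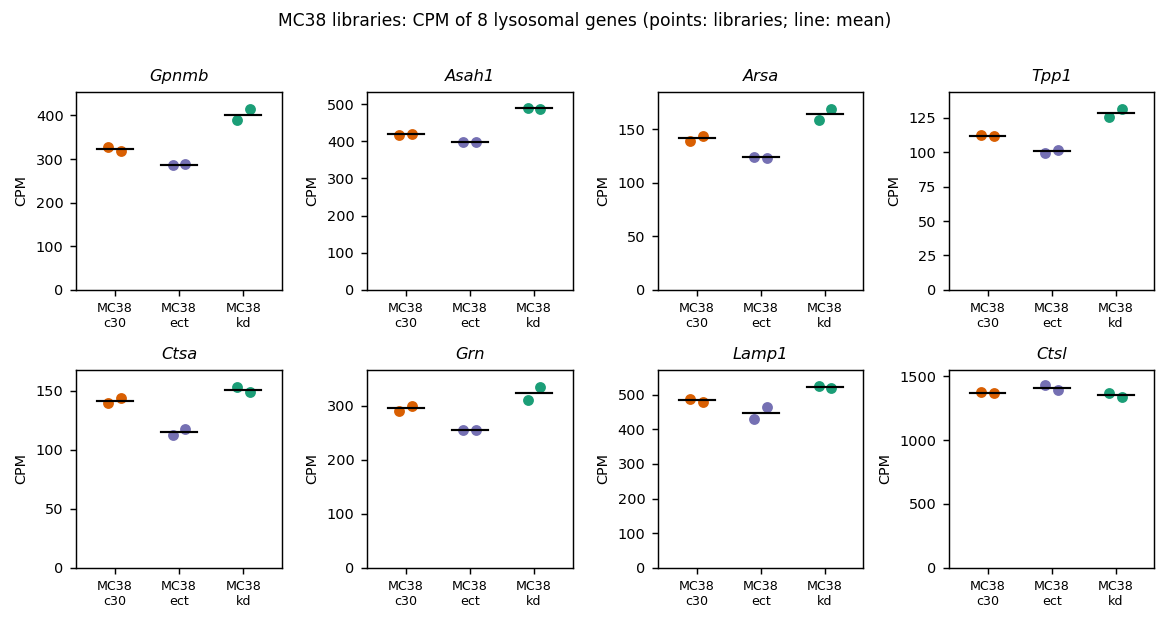
CPM of 8 of the genes in each MC38 library, with groups c30, ect and knockdown (kd) from left to right, points for libraries and a line for the mean of 2. Gpnmb, Asah1, Arsa and Tpp1 were lowest with ect, intermediate with c30 and highest with the knockdown, Ctsa was near the knockdown with c30, and Ctsl lay between 1339 and 1432 CPM in all 6 libraries.

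Of the 7 proteases, 2 fell with c30 and 4 fell with ect. Over all genes tested, 4.45% were lower with c30 and 4.61% with ect. These shares apply to the counts by role in the paragraphs that follow as well. Tpp1, a tripeptidyl peptidase, had 113 and 112 CPM in c30 libraries, 99.8 and 102 CPM in ect libraries and 126 and 132 CPM in knockdown libraries. The 3 groups did not overlap, and Tpp1 was 1.14-fold lower with c30 (log2 fold change -0.19 ± 0.06, edgeR adjusted p = 0.0211) and 1.27-fold lower with ect (-0.34 ± 0.06, adjusted p = 7.32e-06). The aspartic protease Ctsd fell by a similar amount with both mutants: it had 83.0 and 78.1 CPM with c30, 80.3 and 80.6 CPM with ect, and 96.3 and 93.9 CPM with the knockdown alone. Its log2 fold changes were -0.24 ± 0.06 with c30 (edgeR adjusted p = 0.00738) and -0.23 ± 0.06 with ect (0.00734).

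Ctsa, the serine carboxypeptidase that also protects beta-galactosidase and neuraminidase in a complex, had 139 and 144 CPM with c30, 112 and 118 CPM with ect, and 153 and 149 CPM with the knockdown alone. The ect libraries lay apart from the other 4. Ctsa was 1.30-fold lower with ect (log2 fold change -0.38 ± 0.06, edgeR adjusted p = 1.95e-07), and with c30 the estimate was -0.09 ± 0.05 (adjusted p = 0.382). The cysteine protease Ctsb had 499 and 515 CPM with c30, 487 and 488 CPM with ect and 567 and 543 CPM with the knockdown alone. Both mutant groups were below the knockdown libraries, with an edgeR adjusted p of 0.0027 with ect (log2 fold change -0.18 ± 0.04) and 0.0523 with c30 (-0.13 ± 0.04). Exons of Ctsb overlap those of Fdft1 on the opposite strand over 12.8% of their bases, no source used here gives the strand setting of the counting, and Fdft1, a squalene synthase gene, was itself lower with c30 (log2 fold change -0.30 ± 0.06) and ect (-0.42 ± 0.06), so the value of Ctsb is uncertain. In the gene models used (GENCODE M21, build GRCm38), 15 of the 38 genes share exon bases with another gene. Thus 34.4% of the exon bases of Ctsd are shared with Gm49369 on the same strand, and Ctsa shares 10.5% with Pltp, which did not pass with either mutant. Ctsl shares 26.8% with Gm47123, Arsa 18.8% with C230037L18Rik and Sqstm1 17.3% with Mrnip, all on the opposite strand. Hexa shares 12.8% with Tmem202 and Lamp1 9.31% with Grtp1, also on the opposite strand. Arsb, Sgsh, Ctsz, Glb1, Grn, Idua and Ppt1 have overlaps too.

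The other 3 proteases did not pass in either comparison. Ctsl, the most highly counted of the 38 in MC38, had 1374 and 1369 CPM with c30, 1432 and 1393 CPM with ect, and 1374 and 1339 CPM with the knockdown alone. The libraries of the 3 groups were close, with estimates of 0.02 ± 0.04 with c30 and 0.07 ± 0.04 with ect. The exopeptidases Ctsh and Ctsz had estimates of 0.10 ± 0.06 and -0.03 ± 0.05 with c30, and -0.05 ± 0.06 and -0.02 ± 0.05 with ect.

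Among the enzymes and activators of lipid breakdown, Asah1 and Arsa fell with both mutants and the other 5 did not pass. Asah1, the acid ceramidase, had 418 and 419 CPM with c30, 398 and 399 CPM with ect, and 489 and 488 CPM with the knockdown alone. Libraries of a group were nearly equal and the 3 groups did not overlap. It was 1.16-fold lower with c30 (log2 fold change -0.22 ± 0.04, edgeR adjusted p = 1.82e-04) and 1.22-fold lower with ect (-0.28 ± 0.04, adjusted p = 7.91e-07). Arsa, the sulphatase that acts on sulphatide, had 139 and 144 CPM with c30, 124 and 123 CPM with ect, and 159 and 169 CPM with the knockdown alone. Its log2 fold change was -0.21 ± 0.05 with c30 (edgeR adjusted p = 0.00814) and -0.40 ± 0.05 with ect (5.28e-08). Psap was nearly level, with estimates of -0.05 ± 0.04 and -0.06 ± 0.04, while Gm2a, the activator for ganglioside GM2, was counted at 5.05 to 7.67 CPM over the 6 MC38 libraries, and its intervals were wide (-0.46 to 0.43 with c30, -0.37 to 0.49 with ect). The acid lipase Lipa, the thioesterase Ppt1 and the acid sphingomyelinase Smpd1 had estimates of -0.24 ± 0.09, -0.11 ± 0.06 and -0.06 ± 0.11 with c30.

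None of the 6 glycosidases passed with c30, and Glb1 and Hexa fell with ect. Glb1, beta-galactosidase, had 54.5 and 57.4 CPM with c30, 50.9 and 46.9 CPM with ect, and 61.8 and 59.9 CPM with the knockdown alone. Hexa, the alpha subunit of beta-hexosaminidase, had 75.2 and 79.5 CPM with c30, 72.3 and 73.5 CPM with ect, and 87.7 and 86.5 CPM with the knockdown alone. For both genes every mutant library lay under both knockdown libraries. With ect the log2 fold change was -0.31 ± 0.08 for Glb1 (edgeR adjusted p = 0.00473) and -0.25 ± 0.06 for Hexa (0.00555). The estimates with ect for Gaa, Gla, Man2b1 and Neu1, which act on glycogen, globosides, mannosides and sialic acids, lay between -0.22 and -0.08 and did not pass.

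Against shares over all genes of 4.45% lower with c30 and 4.61% with ect, a count of 1 in 8 is not read as a result about a group. For the 8 enzymes of glycosaminoglycan breakdown, 0 passed with c30 and 1 passed with ect. That gene was Arsb, the sulphatase for dermatan and chondroitin sulphate, with 89.5 and 81.1 CPM with c30, 83.8 and 84.1 CPM with ect, and 94.2 and 98.9 CPM with the knockdown alone. Arsb had a log2 fold change of -0.19 ± 0.06 with ect (edgeR adjusted p = 0.036) and -0.17 ± 0.06 with c30 (adjusted p = 0.0692), and 32.3% of its exon bases lie opposite those of Gm26527. The 6 enzymes that act on heparan sulphate were the sulphatases Ids and Sgsh, the glycosidases Idua, Naglu and Gusb, and the acetyltransferase Hgsnat, and none of them passed with either mutant. Naglu came nearest, with 39.5 and 37.96 CPM with c30, 39.5 and 40.6 CPM with ect, and 44.4 and 47.4 CPM with the knockdown alone (edgeR adjusted p = 0.0887 with c30 and 0.222 with ect). All 6 were counted at under 60 CPM in MC38, and the intervals were wide. For Sgsh the log2 fold change could lie between -0.25 and 0.23 with c30 and between -0.34 and 0.13 with ect. Galns, the sulphatase for keratan sulphate and chondroitin 6-sulphate, also did not pass.

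Heparanase (Hpse), an endoglycosidase that cuts heparan sulphate chains and is not one of the 38, had larger estimates than any of these exoenzymes. It had 5.90 and 5.31 CPM with c30, 7.03 and 6.05 CPM with ect, and 10.2 and 10.6 CPM with the knockdown alone. All 4 mutant libraries were below both knockdown libraries, with Hpse 1.84-fold lower with c30 (log2 fold change -0.88 ± 0.20, edgeR adjusted p = 0.00131) and 1.58-fold lower with ect (-0.66 ± 0.19, adjusted p = 0.0155).

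**Figure D3:**
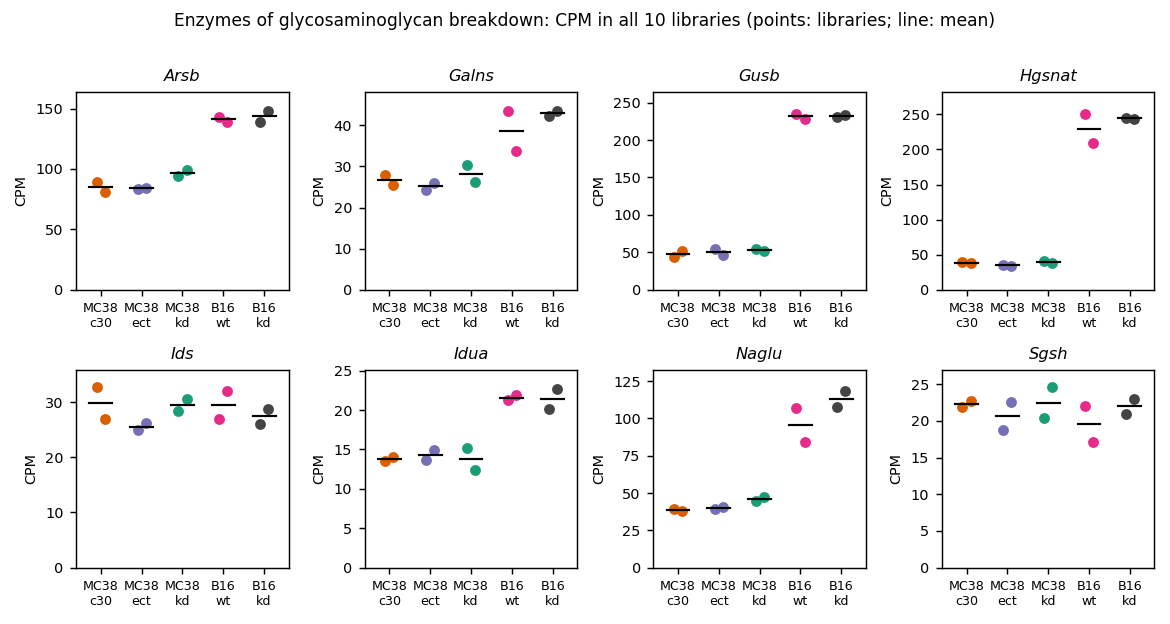
CPM of the 8 enzymes of glycosaminoglycan breakdown in all 10 libraries, with groups MC38 c30, MC38 ect, MC38 knockdown (kd), B16 wild-type Sdc1 (wt) and B16 knockdown (kd), points for libraries and a line for the mean of 2. Hgsnat and Gusb separate the lines most widely, while Ids lies between 24.9 and 32.8 CPM and Sgsh between 17.2 and 24.6 CPM in all 10 libraries.

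Progranulin (Grn), a secreted and lysosomal glycoprotein whose complete loss in humans causes a lysosomal storage disease, had 291 and 300 CPM with c30, 255 and 256 CPM with ect, and 312 and 335 CPM with the knockdown alone. It was 1.26-fold lower with ect (log2 fold change -0.33 ± 0.05, edgeR adjusted p = 1.75e-07) and did not pass with c30 (-0.13 ± 0.05, adjusted p = 0.0912). The autophagy receptor Sqstm1 had 467 and 463 CPM with c30, 421 and 441 CPM with ect, and 519 and 500 CPM with the knockdown alone. Its 3 groups did not overlap, with ect lowest. Sqstm1 passed with ect (-0.23 ± 0.04, edgeR adjusted p = 6.13e-05) and narrowly missed with c30 (-0.13 ± 0.04, adjusted p = 0.0508). The transcription factor genes did not pass: Tfe3 had estimates of 0.04 ± 0.07 with c30 and 0.01 ± 0.07 with ect. Tfeb was counted at 3.44 to 5.39 CPM in MC38, and its intervals of -0.54 to 0.54 with c30 and -0.29 to 0.75 with ect leave its direction unresolved. Mitf, their relative, was at 4.79 to 6.46 CPM in MC38 with no difference that passed.

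Between the mutants, 2 of the 38 genes differed. With c30 over ect, Ctsa was 1.23-fold higher (0.29 ± 0.06 on the log2 scale, edgeR adjusted p = 0.00168) and Grn was 1.15-fold higher (0.20 ± 0.05, adjusted p = 0.0215), and 0 were lower. Over all genes 0.133% were higher and 0.166% lower, and the median log2 fold change was 0.06 for the 38 genes and 0.00 for all genes. Gpnmb and Arsa had estimates of 0.17 ± 0.05 (edgeR adjusted p = 0.0915) and 0.19 ± 0.06 (0.129). The larger count of genes that passed with ect than with c30 is therefore shown as a difference between the mutants for Ctsa and Grn only. Grn was called in 4 of 11 alternative fits, and the call was lost when any 1 of the 4 c30 and ect libraries was left out. Ctsa was called in 9 of 11 and lost its call without c30 replicate 2.

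Calls in MC38 depended to some degree on single libraries and on the tool, while no called gene of the list changed sign. Estimates moved to differing degrees over the 11 alternative fits. They ranged from -0.27 to -0.21 for Ctsd and from -0.23 to -0.16 for Tpp1 with c30, and from -0.26 to -0.24 for Hexa with ect. That of Lamp2 with c30 ranged more widely, from -0.28 to -0.13. With ect, Glb1 ranged from -0.38 to -0.24 and Mcoln1 from -0.30 to -0.17. Gpnmb passed in all 11 alternative fits with both mutants. With ect, Arsa, Asah1, Ctsa, Grn and Tpp1 also passed in all 11. With c30, Ctsd, Lamp2 and Tpp1 lost their calls without c30 replicate 2, and Arsa and Tpp1 lost theirs without c30 replicate 1, leaving 3 and 4 of the 38 genes called. Arsa and Tpp1 also lost their calls without knockdown replicate 2, and Ctsd lost its call without knockdown replicate 1. With ect, Arsb, Ctsd, Glb1, Hexa and Mcoln1 lost their calls without ect replicate 2, Arsb and Lamp1 without ect replicate 1, Ctsd, Glb1 and Mcoln1 without knockdown replicate 1, and Arsb and Mcoln1 without knockdown replicate 2. When all 10 libraries of both lines were fitted together (common biological coefficient of variation 6.65%, against 4.84% for MC38 alone), 1 gene was called with c30, Gpnmb, and 6 were called with ect. With DESeq2, Ctsd and Tpp1 lost their calls with c30, and Arsb, Ctsd, Hexa and Mcoln1 lost theirs with ect. Arsb also lost its call with limma-voom and with no filter on low counts, and passed in 4 of the 11 alternatives. The summed markers of stroma, and Cdh1 among the markers of epithelium, were lower in the same comparisons. The summed CPM of 6 stroma and endothelium markers was 106 and 113 with c30, 109 and 102 with ect, and 143 and 152 with the knockdown alone, mostly Pdgfrb and Pdgfra. The 8 epithelial markers summed to 13.7 and 10.4 CPM with c30, 9.66 and 10.3 CPM with ect, and 16.8 and 16.4 CPM with the knockdown alone. Of the 3 that were tested, Cdh1, which encodes E-cadherin, was called lower with each mutant. It made up most of these sums, at 9.25 and 7.31 CPM with c30, 5.53 and 6.85 CPM with ect, and 13.7 and 13.9 CPM with the knockdown alone. The median log2 fold change of the 3 was 0.41 with c30 and 0.02 with ect. Krt8 had 1.94 and 1.48 CPM with c30, 1.49 and 0.997 CPM with ect, and 1.16 and 1.28 CPM with the knockdown alone. Krt19 had 0.793 and 0.783, 0.878 and 0.931, and 0.653 and 0.527 CPM in the same order. A single unnamed row took 0.968 and 1.99% of counts with c30, 2.38 and 1.31% with ect, and 0.937 and 0.621% with the knockdown alone. The part of any of these in the differences was not tested.

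Other genes of the lysosome, from lists of further hydrolases, sorting machinery, membrane proteins and transporters, proton pump subunits, regulators of the MiT/TFE factors and mTORC1, autophagy and cathepsin inhibitors, were counted in the same way in MC38. Over all genes tested, 4.45% were lower with c30 and 4.61% with ect. Counts of 2 or 3 genes in lists this small are not read as a shift of a list. The median log2 fold change of the sorting list was -0.005 with each mutant. With c30 and ect it was -0.09 and -0.16 for further hydrolases, and -0.05 and -0.14 for other membrane proteins and transporters. It was -0.10 and -0.08 for proton pump subunits, and -0.07 and -0.05 for autophagy. Regulators had 0.03 and -0.02, and cathepsin inhibitors had -0.06 and -0.17. The medians of the 38 genes were -0.11 and -0.17. Of 26 further hydrolases tested, 3 were lower with c30 and 5 with ect, among them Scpep1 (log2 fold change -0.17 ± 0.05 with c30 and -0.23 ± 0.05 with ect). Of 16 genes of enzyme sorting, 3 were lower with c30 and 2 with ect. They included Vps35, a retromer subunit (-0.22 ± 0.04 with c30 and -0.23 ± 0.04 with ect), and Igf2r, the large mannose 6-phosphate receptor (-0.17 ± 0.05 and -0.14 ± 0.05). Among 25 other membrane proteins and transporters, 3 were lower with each mutant. Npc2, which hands cholesterol to NPC1, and Ctns, the cystine exporter, were lower with both, while Tpcn2, a lysosomal cation channel, was lower with c30 (-0.42 ± 0.10) and did not pass with ect (-0.16 ± 0.09).

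Of 17 subunits and partners of the proton pump (V-ATPase), 2 were lower with c30 and 4 with ect. The shares over all genes, 4.45% and 4.61%, apply to the counts that follow as well. Atp6ap2 and Atp6v1b2 were lower with both, and Atp6v0d1 was lower with ect (log2 fold change -0.37 ± 0.08, edgeR adjusted p = 6.45e-04). Of 28 autophagy genes, 2 were lower with c30 and 3 with ect, and Gabarap, a ubiquitin-like protein of the autophagosome membrane, was lower with both (-0.26 ± 0.05 and -0.44 ± 0.05). Of 19 regulators, 1 was higher and 2 were lower with c30, and 0 were higher and 2 lower with ect. The gene that was higher was Zkscan3, described in human cells as a repressor of autophagy genes. It had 92.2 and 88.1 CPM with c30, 73.9 and 70.6 CPM with ect, and 75.3 and 75.4 CPM with the knockdown alone, and it also differed between the mutants (log2 fold change of c30 over ect 0.31 ± 0.06, edgeR adjusted p = 0.00345). Rragc, a GTPase that recruits mTORC1 to the lysosome, was lower with both (-0.22 ± 0.06 and -0.19 ± 0.06). No cathepsin inhibitor of 3 tested passed with c30, and Cstb was lower with ect (-0.17 ± 0.06). Apart from Zkscan3, no gene of these lists differed between the mutants.

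In B16, no gene of the list passed the test between wild-type Sdc1 and the knockdown alone. In that comparison 0 of 14336 genes were called higher (0%) and 0 lower (0%) with edgeR, 791 genes had an unadjusted p under 0.05, and DESeq2 called 10 genes and limma-voom 0. Of the 38 genes, 0 had an unadjusted p under 0.05 with edgeR, and DESeq2 and limma-voom called 0. Their median log2 fold change was -0.02, against 0.00 over all genes. Gpnmb had 9399 and 8733 CPM with wild-type Sdc1 and 8902 and 9139 CPM with the knockdown alone, and the groups overlapped. Its log2 fold change was 0.03 with a 95% interval of -0.17 to 0.24. The added forms differ between the lines, and the difference of this result from those in MC38 was not tested. The smallest p-value of the list belonged to Ctsz, with 341 and 283 CPM with wild-type Sdc1 and 370 and 365 CPM with the knockdown alone (log2 fold change -0.21 ± 0.10, edgeR adjusted p = 0.891).

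Several of the genes called in MC38, chosen after their values were seen, are given here for B16. Asah1 had 188 and 217 CPM with wild-type Sdc1, on both sides of the 198 and 197 CPM of the knockdown alone. Tpp1 had 269 and 255 CPM with wild-type Sdc1 and 253 and 284 CPM with the knockdown alone, and Ctsa had 220 and 203 CPM against 215 and 230 CPM. All 3 of these genes overlapped between the groups. Arsa had 75.9 and 69.2 CPM with wild-type Sdc1, just under the 76.3 and 82.6 CPM of the knockdown alone (log2 fold change -0.10, 95% interval -0.31 to 0.11). Lamp2 had 488 and 481 CPM with wild-type Sdc1, just over the 477 and 466 CPM of the knockdown alone (0.07, -0.11 to 0.24), and Lamp1 and Ctsd overlapped. The 8 enzymes of glycosaminoglycan breakdown had log2 fold changes from -0.22 ± 0.11 for Naglu to 0.13 ± 0.13 for Ids, and Hpse had 16.6 and 14.7 CPM with wild-type Sdc1 and 14.1 and 16.6 CPM with the knockdown alone. The highest estimate of the list was that of Lipa, with 152 and 146 CPM with wild-type Sdc1 and 134 and 139 CPM with the knockdown alone (0.15 ± 0.08, edgeR adjusted p = 0.901).

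The calls in B16 changed with the library left out. Sqstm1 had 1259 CPM in replicate 1 and 1030 CPM in replicate 2 with wild-type Sdc1, 1 above and 1 below the 1136 and 1166 CPM of the knockdown libraries, and Grn had 431 and 365 CPM against 407 and 431 CPM. Without replicate 1, 6 of the 38 genes were called lower: Ctsz (log2 fold change -0.35), Naglu (-0.39), Psap (-0.20), Glb1 (-0.26), Hgsnat (-0.19) and Grn (-0.16), while 1295 of 15073 genes were called in all. Without replicate 2, which carried the high mitochondrial share, 0 of the 38 genes were called and 6 had an unadjusted p under 0.05, while 326 of 15024 genes were called in all, 177 higher and 149 lower.

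The lines themselves differed far more than the groups within them. In B16 knockdown libraries 29 of the 38 genes were higher, 6 were lower and 3 did not pass relative to MC38 knockdown libraries by edgeR's test. Over all 16877 genes tested, 33.8% were higher and 34.3% lower. The median log2 fold change was 0.66 for the 38 genes and -0.01 for all genes. Their summed CPM was 18213 and 18759 in B16 knockdown libraries and 7656 and 7603 in MC38 knockdown libraries, and Gpnmb alone contributed 8902 and 9139 CPM in B16. Line and every other property that differs between the cultures cannot be told apart here.

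All 6 membrane proteins were higher in B16. Gpnmb had 8902 and 9139 CPM in B16 knockdown libraries against 389 and 414 CPM in MC38 knockdown libraries, a 23.1-fold difference (log2 fold change 4.53 ± 0.07, edgeR adjusted p = 6.58e-28). Gpnmb is a known product of pigment cells and target of Mitf, and Mitf had 227 and 241 CPM in B16 and 6.46 and 4.97 CPM in MC38. The promoter window of Gpnmb held no match to the E-box forms that were sought. The part of Mitf in the difference was not tested. Cd63, a marker of late endosomes and melanosomes, had 732 and 728 CPM in B16 and 324 and 293 CPM in MC38 (1.28 ± 0.07, edgeR adjusted p = 9.51e-16). Scarb2 was 2.05-fold higher, Lamp1 1.48-fold, Lamp2 1.22-fold and Mcoln1 1.17-fold higher.

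The proteases split. Ctsd, Tpp1, Ctsz, Ctsb and Ctsa were higher in B16, from 1.51-fold for Ctsa to 3.19-fold for Ctsd, which had 285 and 306 CPM in B16 and 96.3 and 93.9 CPM in MC38. Ctsl went the other way, with 302 and 307 CPM in B16 against 1374 and 1339 CPM in MC38, 4.33-fold lower (log2 fold change -2.12 ± 0.06, edgeR adjusted p = 9.51e-22). Ctsh was lower too, with 14.3 and 14.8 CPM in B16 and 94.9 and 80.3 CPM in MC38 (-2.55 ± 0.11, edgeR adjusted p = 1.07e-17). For both genes the lines did not overlap in any of the 10 libraries.

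Of the enzymes of glycosaminoglycan breakdown, 6 of 8 were higher in B16, and the steps of heparan sulphate breakdown differed unequally. Hgsnat, the membrane-bound acetyltransferase, had 245 and 244 CPM in B16 and 41.4 and 38.1 CPM in MC38, 6.31-fold higher (log2 fold change 2.66 ± 0.08, edgeR adjusted p = 9.27e-21). Gusb had 231 and 233 CPM in B16 and 54.6 and 51.5 CPM in MC38, 4.496-fold higher (2.17 ± 0.08). Naglu, which acts after Hgsnat, was 2.53-fold higher, with 108 and 119 CPM in B16 and 44.4 and 47.4 CPM in MC38. Idua, Galns and Arsb were 1.59-fold, 1.56-fold and 1.53-fold higher. The sulphatases Ids and Sgsh did not pass. Ids had 26.1 and 28.8 CPM in B16 and 28.3 and 30.6 CPM in MC38 (log2 fold change -0.06, 95% interval -0.31 to 0.19), and Sgsh had 20.9 and 23.0 CPM in B16 and 20.4 and 24.6 CPM in MC38 (0.01, -0.28 to 0.29). Exons of Sgsh overlap those of Card14 on the opposite strand over 21.6% of their bases, and Card14 was itself higher in B16. Hpse was 1.52-fold higher in B16.

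**Figure D4:**
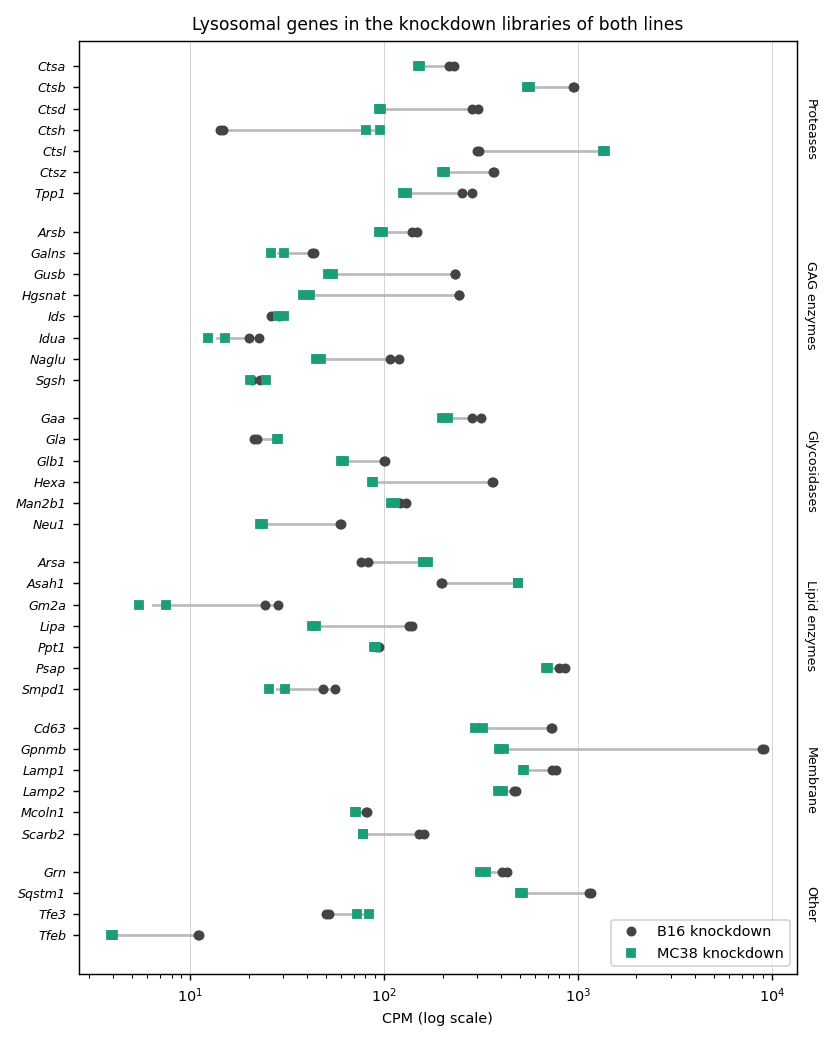
CPM of the 38 genes on a log axis in the 2 B16 knockdown libraries (dark circles) and the 2 MC38 knockdown libraries (green squares), grouped by role, with a grey line joining the group means. Gpnmb shows the widest gap, Ctsl, Ctsh, Asah1 and Arsa lie further right in MC38, and Ids, Sgsh and Ppt1 nearly coincide.

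Among the glycosidases, Hexa was 4.27-fold higher in B16, with 361 and 363 CPM against 87.7 and 86.5 CPM in MC38 (log2 fold change 2.10 ± 0.07, edgeR adjusted p = 2.29e-20). Neu1, Glb1, Gaa and Man2b1 were 2.63-fold, 1.70-fold, 1.49-fold and 1.16-fold higher, and Gla, alpha-galactosidase A, was 1.26-fold lower. Gm2a, whose product acts together with hexosaminidase on ganglioside GM2, was 4.19-fold higher in B16, at 24.2 and 28.4 CPM against 5.44 and 7.46 CPM in MC38. The other lipid genes moved both ways. Lipa was 3.22-fold, Smpd1 1.90-fold and Psap 1.23-fold higher, and Ppt1 did not pass. Asah1 had 198 and 197 CPM in B16 and 489 and 488 CPM in MC38, 2.40-fold lower (-1.26 ± 0.07, edgeR adjusted p = 1.51e-15). Arsa had 76.3 and 82.6 CPM in B16 and 159 and 169 CPM in MC38 (log2 fold change -1.003 ± 0.07, edgeR adjusted p = 1.25e-12).

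Tfeb was 2.86-fold higher in B16, at 11.0 and 11.1 CPM against 3.99 and 3.92 CPM in MC38, whereas Tfe3 was 1.48-fold lower, at 50.2 and 52.0 CPM against 72.2 and 83.3 CPM. Sqstm1 had 1136 and 1166 CPM in B16 and 519 and 500 CPM in MC38, 2.32-fold higher (log2 fold change 1.22 ± 0.07, edgeR adjusted p = 1.78e-14), and Grn was 1.33-fold higher. Of the calls between lines, all but 3 held in all 11 alternative fits. Gla lost its call without any 1 of the 4 knockdown libraries, Man2b1 without MC38 replicate 1 or B16 replicate 2, and Mcoln1 without replicate 1 of either line.

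Several other lysosomal lists were also mostly higher in B16 knockdown libraries, but the autophagy list was not. Over all genes tested, 33.8% were higher and 34.3% lower. Of 18 V-ATPase subunits and partners, 16 were higher and 1 was lower, and of 29 further hydrolases 22 were higher and 5 lower. Of 16 sorting genes, 12 were higher and 3 lower. Sortilin (Sort1) had 226 and 236 CPM in B16 and 20.6 and 17.2 CPM in MC38, and the small mannose 6-phosphate receptor M6pr had 388 and 375 CPM in B16 and 135 and 135 CPM in MC38. Of 27 other membrane proteins and transporters, 17 were higher and 6 lower. Of 21 regulators of the MiT/TFE factors and mTORC1, 10 were higher and 5 lower, and of 3 cathepsin inhibitors 2 were higher and 1 was lower. Of 28 autophagy genes, 11 were higher and 13 lower, with a median log2 fold change of -0.17.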

How the data were processed

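Per the labels, total RNA was taken through a standard mRNA library kit and sequenced from both ends. The deposited values are raw counts per gene in whole numbers. The submitters' processing notes name the trimmer Trimmomatic, the aligner HISAT2 2.0.5, the counters HTSeq and featureCounts, DESeq2 and build GRCm39. They do not give the order, annotation release, strand setting or treatment of multiply mapped reads. Values of genes that share exon bases with another gene are therefore uncertain, and this is not repeated wherever such a gene is named. Symbols were matched by Ensembl identifier for 51884 of 60676 rows.

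Libraries were grouped by their titles into 5 groups of 2. The main test, on genes kept by filterByExpr, was that of edgeR 4.0.16 under R 4.3.3 (TMM, robust dispersions, quasi-likelihood test, 2-sided), Benjamini-Hochberg adjusted over all genes tested and called under 0.05. A single model of 6 libraries served the MC38 comparisons, B16 used 4 libraries, and the comparison of lines used all 10. Standard errors and 95% intervals come from these fits, and values of single libraries are CPM of the library total. The test was tried on simulated counts. Depth was 11349447 to 15041133 counts per library.

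The 38 genes, the other lists and the tests were chosen with earlier results of these data known. All 38 could be named in any comparison. Outside them, named genes were Sdc1, Mitf, cell markers and up to 3 called genes with the smallest adjusted p per list and comparison; overlapping genes (Fdft1, Pltp, Card14 and the like) were added after values were seen. Results of some genes outside the 38 are not reported here. Alternatives were RLE size factors, no filter, DESeq2 1.42.0, limma-voom (limma 3.58.1), a minimum of 5 CPM in at least 2 libraries, replicate number as a block, all 10 libraries in 1 fit or only the 4 knockdown libraries, and leaving out each library. A crossed pairing in B16 was added after seeing the data.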

Additional observations from a re-analysis of the deposited data

How the results depend on the processing

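No called gene of the list changed sign under any alternative, and signs of genes outside the list were not compared. Of the genes of the list called lower with c30 (6), 4 were called with DESeq2 and 1 with all 10 libraries in 1 fit. Without single libraries 3 to 6 genes of the list were called, of which 3 to 5 were among these 6. With ect (15), 11 were called with DESeq2 and 6 with all 10 libraries in 1 fit. Without single libraries 10 to 14 genes were called, of which 10 to 13 were among these 15. Between c30 and ect (2), 1 was called with DESeq2, 1 with limma-voom, 0 with all 10 libraries, and 0 to 1 without single libraries. In B16 (0), 0 to 6 were called without single libraries, the 6 being those without wild-type Sdc1 replicate 1. Between lines (35) the count stayed between 32 and 35. Over all genes, calls with c30 (1165) numbered 519 with DESeq2, 254 with all 10 libraries and 464 to 992 without single libraries. Those with ect (1227) numbered 596, 249 and 776 to 984, and those between c30 and ect (45) numbered 15, 8 and 18 to 44. In B16 (0) there were 42 with no filter, 10 with DESeq2, 27 with all 10 libraries and 3 to 1295 without single libraries. Of the calls with c30, 496 of 1165 were higher, against 64 of 254 with all 10 libraries, and with ect 534 of 1227, against 65 of 249. The cause of these shifts was not tested. A left-out library leaves its group with 1 sample, which is then assumed to vary like the others.

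Replicate numbers did not pair the MC38 libraries, whose deviations correlated at -0.006 to 0.041 between groups. With replicate number as a block, the replicate block called 6 genes of the list with c30, 16 with ect, 2 between c30 and ect, 0 in B16 and 35 between lines, and 15 genes in all in B16. The 16 with ect included Cd63, which was also called higher with the filter at 5 CPM and without knockdown replicate 1. Ctsb and Sqstm1 with c30 crossed the threshold with RLE, the filter at 5 CPM, limma-voom and without knockdown replicate 2. In B16 the deviations correlated at -0.177, and a crossed pairing called 5 genes, none of the list. Precision is limited by 2 libraries per group, and the intervals of genes under 10 CPM, Tfeb and Gm2a in MC38, were the widest of the list.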
